A study of Mus musculus with 4 samples.

Results

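Dusp1, Dusp2, Dusp3, Dusp4, Dusp5, Dusp6, Dusp7, Dusp10, Dusp16 and Dusp22 encode dual-specificity phosphatases that act on MAP kinases or their pathways. These 10 genes were taken by symbol from a table of raw counts for 23390 gene models, and all 10 were found in it and had enough counts to be tested among 13214 genes. The counts come from cultures of mouse osteoclasts, the bone-resorbing cells that form by fusion of macrophages under M-CSF and RANKL. In 2 libraries the wild-type C57BL/6J cells had received 10 µM BMS-582949, an inhibitor of the kinase p38α, and in 2 libraries the solvent DMSO. Every culture was grown from bone marrow with L929 cell supernatant supplying M-CSF (20 ng/ml equivalent), was then driven by 40 ng/ml RANKL, and gave RNA at day 4. The sources differ on whether the compound was present for 3 or 4 days, their treatment text names it for the DMSO samples too, and the titles transpose digits of its name, so the groups follow the treatment label. The comparison asks how p38α inhibition during osteoclast formation changes the RNA of phosphatases that act on p38, its sister kinases or their pathways.

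MAP kinases (ERK, JNK and p38) are switched on by phosphorylation of a threonine and a tyrosine in the activation loop. Dual-specificity phosphatases that act on these kinases remove both phosphates. Many of their genes are themselves induced by the kinases they turn off, which makes a negative feedback. The inducible nuclear members are Dusp1, Dusp2, Dusp4 and Dusp5, the cytoplasmic members directed at ERK are Dusp6 and Dusp7, and Dusp10 and Dusp16 prefer p38 and JNK. Dusp3 and Dusp22 are small atypical enzymes without the kinase-binding domain of the others. In macrophages Dusp1 is known as the main brake on p38 and JNK after an inflammatory stimulus.

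Total counts per library ranged from 35331889 to 39255925, so counting error is small for all but the rarest members. Nothing in the labels says whether libraries of a group came from separate mice or cultures. The p-values therefore cover the spread between these 4 libraries alone, and that spread may be technical. The osteoclast identity of the cultures was checked with 12 marker genes, all of which were detected and all of which were lower with BMS-582949. Their summed level was 13608 and 13863 CPM (counts scaled to the size of the library, with TMM factors) with BMS-582949, against 112259 and 116703 CPM in DMSO. Ctsk, the collagen-degrading protease gene of osteoclasts, had a log2 fold change of -2.96. Of 14 macrophage markers 8 were higher and 2 lower, with sums of 4305 and 4702 CPM with BMS-582949, against 6351 and 6613 CPM in DMSO. The fall of the sum lies in the 2 lower genes, Cd68 and Csf1r, and not in the 8 higher ones. Cd68 had 1260 and 1455 CPM with BMS-582949, against 3442 and 3486 CPM in DMSO. Csf1r had 875 and 891 CPM with BMS-582949, against 1886 and 2069 CPM in DMSO.

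With BMS-582949 the family split, with 4 members higher, 4 lower and 2 not called. Dusp6, Dusp5, Dusp1 and Dusp7 rose by 1.35- to 1.65-fold, while Dusp3, Dusp4, Dusp22 and Dusp16 fell to between 0.414 and 0.719 of their DMSO level. A call means a Benjamini-Hochberg adjusted p under 0.05 over all 13214 tested genes (edgeR quasi-likelihood test). That threshold called 60.2% of all tested genes, 30.5% higher and 29.7% lower, so a count of 8 called members among 10 lies near what the whole table shows. Both BMS-582949 libraries lay on the same side of both DMSO libraries for 9 of 10 members, against 80.2% of all tested genes. The members' median log2 fold change was 0.29, against 0.03 for all tested genes, and their median absolute log2 fold change was 0.46, against 0.50. The first of these medians rests on single libraries: leaving out BMS-582949 replicate 2 gave -0.023 and leaving out its replicate 1 gave 0.51, while scaling by library size alone gave 0.67. Dusp3 alone was called with a change of at least 1 on the log2 scale, a size that 21.3% of all tested genes reached. In whole cultures, fewer cells of a type and less RNA per cell cannot be told apart.

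**Figure D1:**
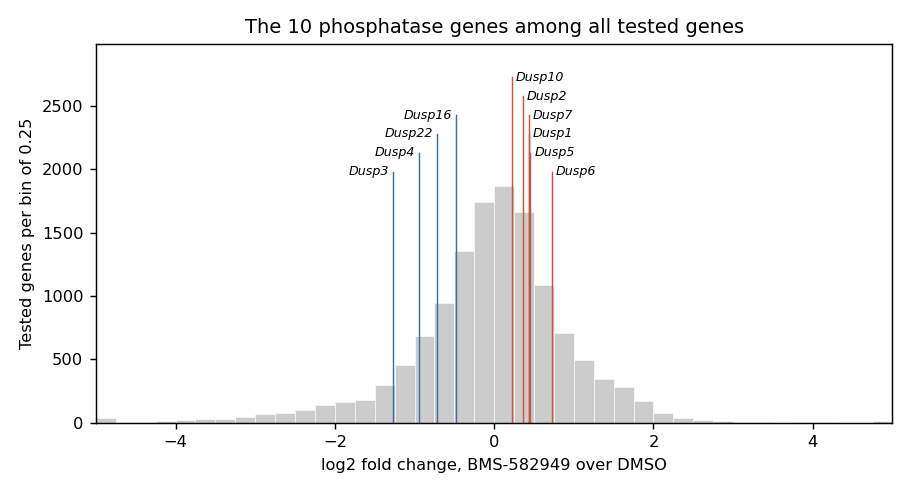
Histogram of the log2 fold changes (BMS-582949 over DMSO) of all 13214 tested genes in bins of 0.25, with a line at the value of each of the 10 phosphatase genes (red above 0, blue below 0). Line heights only separate the labels, genes beyond 5 in either direction are counted in the end bins, and the members lie within the bulk of the distribution, from -1.27 for Dusp3 to 0.72 for Dusp6.

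Among the inducible nuclear phosphatases, Dusp1 and Dusp5 rose, Dusp4 fell and Dusp2 was not called. Dusp1, a phosphatase of p38, JNK and ERK, had 73.8 and 87.4 CPM with BMS-582949, against 61.5 and 57.4 CPM in DMSO. Both treated libraries lay above both DMSO libraries. The log2 fold change was 0.44 (95% interval 0.25 to 0.63, adjusted p = 0.00074). Without BMS-582949 replicate 2, the higher of the treated libraries, it was 0.29 and still called (adjusted p = 0.0036). The gene (ENSMUSG00000024190) is annotated on GRCm38 chromosome 17 at 26505590 to 26562128, on the minus strand, and 0.332% of its exon length is shared with Ergic1, a gene on the opposite strand.

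The Dusp1 promoter holds a cyclic AMP response element (CRE), a site bound by factors that kinases downstream of p38 and ERK phosphorylate. In the RefSeq table of promoters, which hold 250 bases before and 50 bases after the annotated start on build GRCm38.p6, 9 of the 10 genes had an entry, all but Dusp4. The motifs TGACGTCA (CRE), TGANTCA (AP-1), CCGGAA (ETS) and CACGTG (E-box), none of which contains another, were searched on both strands. They occurred in 1.79%, 7.81%, 14.9% and 7.15% of 32851 promoters. Dusp1 held 1 CRE and 1 E-box, Dusp2 held 1 E-box, and the other 7 promoters held none of these letters, Dusp6 and Dusp3 among them. The promoter of Dusp1 is shown with the CRE and then the E-box in capitals, beside those of the members with the largest rise (Dusp6) and the largest fall (Dusp3). Their positions are chr17:26508423-26508722 on the minus strand, chr10:99262981-99263280 on the plus strand and chr11:101984742-101985041 on the minus strand.
Dusp1: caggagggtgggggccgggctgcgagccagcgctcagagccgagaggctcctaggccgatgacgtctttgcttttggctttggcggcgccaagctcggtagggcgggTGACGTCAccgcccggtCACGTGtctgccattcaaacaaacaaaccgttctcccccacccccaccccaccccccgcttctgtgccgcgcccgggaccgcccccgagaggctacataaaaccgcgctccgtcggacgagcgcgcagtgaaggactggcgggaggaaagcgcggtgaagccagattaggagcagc
Dusp6: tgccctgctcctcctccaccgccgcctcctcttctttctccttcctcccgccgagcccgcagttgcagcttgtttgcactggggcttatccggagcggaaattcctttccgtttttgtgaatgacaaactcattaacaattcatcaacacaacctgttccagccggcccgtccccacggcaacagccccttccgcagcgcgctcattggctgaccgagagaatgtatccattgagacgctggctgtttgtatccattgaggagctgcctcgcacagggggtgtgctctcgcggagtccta
Dusp3: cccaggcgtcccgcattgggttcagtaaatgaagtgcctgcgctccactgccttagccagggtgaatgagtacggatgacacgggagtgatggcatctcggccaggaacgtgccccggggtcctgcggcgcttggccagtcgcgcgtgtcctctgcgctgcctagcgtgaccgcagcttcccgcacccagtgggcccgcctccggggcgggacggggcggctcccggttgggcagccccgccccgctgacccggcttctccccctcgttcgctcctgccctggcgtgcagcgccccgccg
GC content of the printed windows was 67.0% for Dusp1, 57.3% for Dusp6 and 71.3% for Dusp3.

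Dusp5, a nuclear phosphatase of ERK, had 16.6 and 18.9 CPM with BMS-582949, against 12.2 and 13.8 CPM in DMSO. The groups did not overlap, and the log2 fold change was 0.45 (95% interval 0.18 to 0.72, adjusted p = 0.0068). This call rests on single libraries: it ended without BMS-582949 replicate 2 (0.34, adjusted p = 0.098) and without DMSO replicate 1 (0.37, adjusted p = 0.054). An antisense model, AC137853.2, covers 22.1% of the exon length of Dusp5 (ENSMUSG00000034765) but is not among the counted gene models. Whether strand was used in counting is not given in the sources used here, so antisense reads could be counted in Dusp5.

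Dusp4, a nuclear phosphatase of ERK and JNK, went against Dusp1 and Dusp5. It had 37.7 and 32.8 CPM with BMS-582949, against 61.6 and 74.2 CPM in DMSO, and both treated libraries were the lower. The log2 fold change was -0.94 (95% interval -1.16 to -0.72, adjusted p = 4.9e-06). Dusp4 (ENSMUSG00000031530, chromosome 8, 34807297 to 34819894, plus strand) shares no exon with another model.

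Dusp2, a nuclear phosphatase of activated immune cells, was rare, with 122 and 137 raw counts with BMS-582949, against 72 and 73 in DMSO. Scaled, that is 2.70 and 3.24 CPM with BMS-582949, against 2.32 and 2.31 CPM in DMSO. The treated libraries were higher, but the difference did not pass the test (log2 fold change 0.36, 95% interval -0.22 to 0.93, adjusted p = 0.26).

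Both cytoplasmic phosphatases directed at ERK rose. Dusp6, which binds and inactivates ERK, showed the largest rise of the family and close agreement between libraries. It had 68.4 and 67.3 CPM with BMS-582949, against 41.1 and 41.0 CPM in DMSO, and the libraries of each group nearly coincided. The fold was 1.65 (95% interval 1.48 to 1.84), or 0.72 ± 0.07 in log2 units (SE, adjusted p = 2.6e-06). It lies on chromosome 10 at 99263231 to 99267489 (ENSMUSG00000019960, plus strand), free of overlap with other exons.

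Dusp7, another cytoplasmic phosphatase of ERK, had 56.8 and 65.8 CPM with BMS-582949, against 42.3 and 48.4 CPM in DMSO. The groups did not overlap, though the libraries of each group stood further apart than for Dusp6. The log2 fold change was 0.44 (95% interval 0.23 to 0.64, adjusted p = 0.0015). Dusp7 is ENSMUSG00000053716 on chromosome 9, 106368632 to 106375724, plus strand.

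Of the phosphatases that prefer p38 and JNK, both rare in these cultures, Dusp16 was lower and Dusp10 was not called. Dusp16, a phosphatase of JNK and p38, had 263 and 222 raw counts with BMS-582949, against 247 and 235 in DMSO, which is 5.81 and 5.25 CPM against 7.95 and 7.45 CPM after scaling. The raw counts of the groups overlap and the scaled levels do not. The log2 fold change was -0.48 (95% interval -0.84 to -0.11, adjusted p = 0.026). The call ended without BMS-582949 replicate 2 (-0.43, adjusted p = 0.093), without DMSO replicate 1 (-0.43, adjusted p = 0.089), with DESeq2 (-0.50, adjusted p = 0.092) and with scaling by library size only (-0.09, adjusted p = 0.63).

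Dusp10, which also inactivates p38 and JNK, had 2.83 and 4.89 CPM with BMS-582949, against 3.60 and 3.01 CPM in DMSO. The treated libraries lay on either side of the DMSO libraries, the only case of overlapping groups among the 10 genes. The log2 fold change was 0.22 (95% interval -0.39 to 0.83, adjusted p = 0.52), which became -0.25 when BMS-582949 replicate 2 was left out and 0.56 when its replicate 1 was. The interval holds both a rise and a fall.

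Both atypical phosphatases fell. Dusp3, which dephosphorylates ERK and JNK in cells, had 96.8 and 96.5 CPM with BMS-582949, against 229 and 239 CPM in DMSO. The treated libraries agree closely and lie far below the DMSO libraries. Its fold was 0.414 (95% interval 0.377 to 0.454), or -1.27 ± 0.06 in log2 units (SE, adjusted p = 3.5e-09), and 16.2% of all tested genes had a larger absolute change. Dusp3 (ENSMUSG00000003518) lies on chromosome 11 at 101971143 to 101987013, on the minus strand. An antisense model that is not among the counted gene models, Gm20659, covers 12.9% of the exon length of Dusp3.

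Dusp22, an atypical phosphatase linked to JNK signalling, had 20.2 and 25.1 CPM with BMS-582949, against 38.6 and 35.9 CPM in DMSO. Both treated libraries were lower, and the log2 fold change was -0.72 (95% interval -0.99 to -0.45, adjusted p = 0.00027). It lies on chromosome 13 at 30659999 to 30711231 (ENSMUSG00000069255, plus strand).

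**Figure D2:**
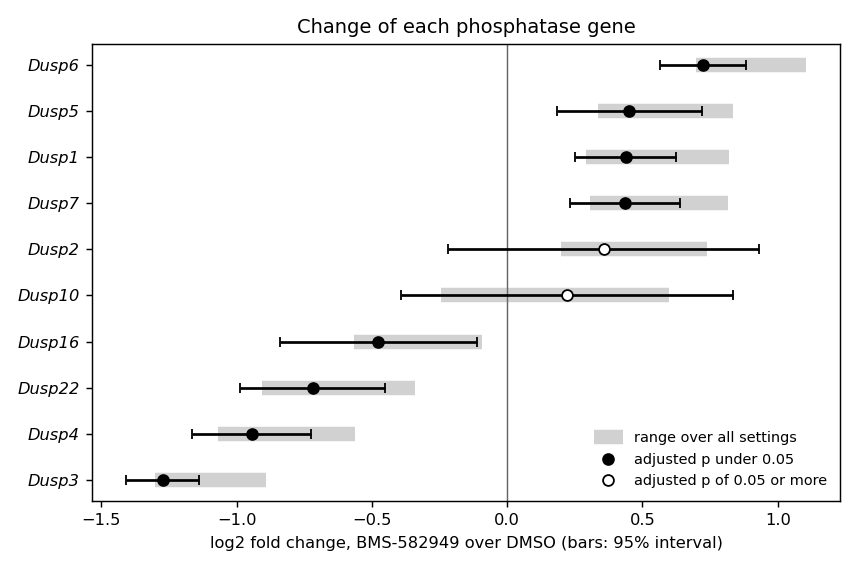
Log2 fold change (BMS-582949 over DMSO) of each of the 10 genes with its 95% interval, ordered from the largest rise to the largest fall; filled points passed an adjusted p of 0.05 and open points did not. Grey bars give the range of the fold change over the main and 13 alternative settings, and among these Dusp10 is the only gene whose bar crosses 0.

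Scaling bears on all of these values. With library size only in place of TMM, the fold changes of all genes shifted by a median of 0.38 on the log2 scale, with 6738 genes called higher and 2240 lower, against 4035 and 3919 with TMM. Dusp6 then had a log2 fold change of 1.11 and Dusp1, Dusp5 and Dusp7 had 0.82 to 0.83, while Dusp4 had -0.56, Dusp22 -0.34 and Dusp3 -0.89. Dusp2 passed the test under that scaling alone (0.74, adjusted p = 0.026). The directions of the 8 called members were the same under all 13 alternatives run.

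Levels can be compared between the genes once they are divided by exon length, as CPM per kb of merged exon. With BMS-582949 the order was Dusp1 (24.3 ± 2.91 CPM per kb, SD, n = 2), Dusp6 (21.7 ± 0.25), Dusp3 (20.6 ± 0.04), Dusp7 (18.3 ± 1.90), Dusp4 (12.9 ± 1.25), Dusp5 (7.19 ± 0.65) and Dusp22 (4.43 ± 0.68). Dusp2, Dusp10 and Dusp16 closed it at 1.48, 1.27 and 0.71 CPM per kb, and of neighbours in this order only Dusp2 and Dusp10 had overlapping library ranges. In DMSO Dusp3 led at 49.9 ± 1.47 CPM per kb, followed by Dusp4 (24.8 ± 3.25), Dusp1 (18.0 ± 0.87), Dusp7 (13.5 ± 1.28), Dusp6 (13.1 ± 0.02), Dusp22 (7.30 ± 0.38) and Dusp5 (5.25 ± 0.44). Dusp2, Dusp10 and Dusp16 were again lowest, at 1.16, 1.09 and 0.99 CPM per kb. Library ranges overlapped between Dusp7 and Dusp6, between Dusp2 and Dusp10 and between Dusp10 and Dusp16. Dividing by the longest protein-coding transcript instead kept Dusp1 first with BMS-582949 and Dusp3 first in DMSO, but put Dusp1 ahead of Dusp4 in DMSO (29.9 against 24.8 CPM per kb). It also put Dusp22 ahead of Dusp5 with BMS-582949, with overlapping ranges, and in DMSO put Dusp6 ahead of Dusp7, with overlapping ranges, and Dusp16 ahead of Dusp2 and Dusp10. The mean level of Dusp1 was then 40.5 CPM per kb with BMS-582949, and that of Dusp22 was 7.51 CPM per kb with BMS-582949 and 12.4 CPM per kb in DMSO.

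**Figure D3:**
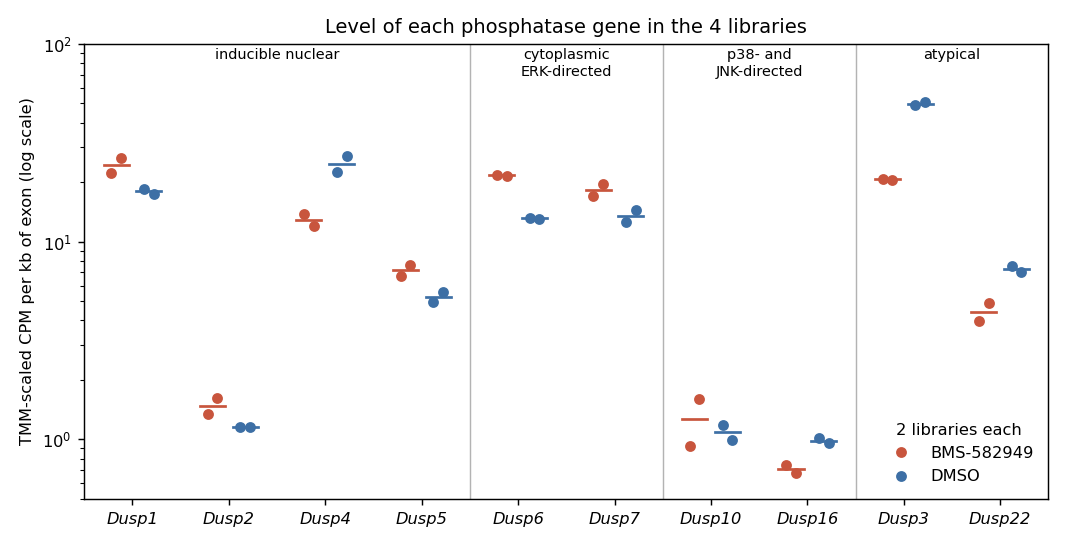
Level of each gene in every library, as TMM-scaled CPM per kb of exon on a log scale, with BMS-582949 (red) left of DMSO (blue); points are libraries (2 per group), lines are means, and vertical rules separate the 4 functional groups. Dusp3 stands alone at the top in DMSO and falls in among Dusp1, Dusp6 and Dusp7 with BMS-582949.

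The make-up of the family's RNA shifted accordingly. Summed over the 10 genes, the level was 109 and 117 CPM per kb with BMS-582949, against 132 and 139 CPM per kb in DMSO. Dusp3 made up 18.9% and 17.7% of that sum with BMS-582949, against 37.2% and 36.8% in DMSO. The cytoplasmic ERK-directed pair, Dusp6 and Dusp7, made up 35.5% and 35.3% with BMS-582949, against 19.6% and 19.9% in DMSO. Dusp4 held 12.6% and 10.3% with BMS-582949, against 17.1% and 19.5% in DMSO. The inducible nuclear group as a whole held 40.4% and 40.9% with BMS-582949, against 35.8% and 36.9% in DMSO, with Dusp1 taking more of the sum and Dusp4 less. The p38- and JNK-directed pair stayed between 1.40% and 1.96% in all 4 libraries. These shares are a description of RNA levels and were not tested. They use merged exon length and would differ with another length. Dusp1, for example, had a mean of 24.3 CPM per kb of merged exon with BMS-582949, against 40.5 by the longest protein-coding transcript.

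**Figure D4:**
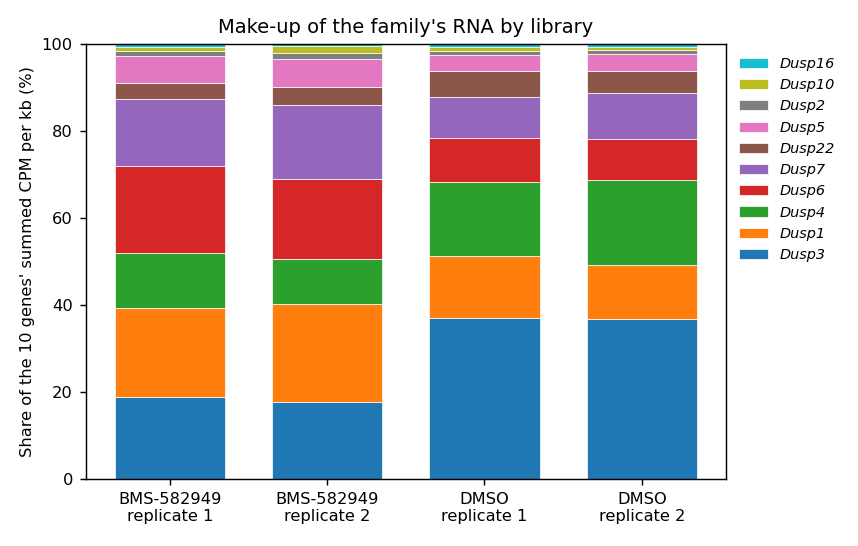
Share of each gene in the summed CPM per kb of merged exon over the 10 phosphatase genes (%), 1 bar per library. The BMS-582949 libraries stand left of the DMSO libraries. The Dusp3 segment takes 18.9% and 17.7% with BMS-582949 and 37.2% and 36.8% in DMSO, and the Dusp6 and Dusp7 segments are the taller with BMS-582949.

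Members differ in the AU-rich pentamer ATTTA of the 3′ untranslated region, part of the element through which proteins such as tristetraprolin shorten the life of short-lived mRNAs. In the longest annotated 3′ region of each gene (GENCODE M21), ATTTA occurred in 9 of 10 members, all but Dusp7, and in 65.2% of 21022 genes. The longer form TATTTAT occurred in Dusp1 (3 times) and Dusp2 (1 time), and in 27.6% of all genes, with 3 or more in 4.14%. Per kb, Dusp2 and Dusp1 had 6.88 and 5.80 pentamers, against a median of 1.24 over all genes, while Dusp6, Dusp22 and Dusp5 had 0.84, 0.84 and 0.90. Dusp10 had 2.70, Dusp4 1.80, Dusp16 1.24 and Dusp3 1.11. Short windows are shown for the richest members and for the largest rise and fall, with ATTTA in capitals. They lie at chr17:26506156-26506185 (minus strand), chr2:127337998-127338027 (plus), chr10:99267420-99267449 (plus) and chr11:101974515-101974544 (minus) of GRCm38.
Dusp1: gctggtccttATTTATTTAacacccccctc
Dusp2: aaattaATTTAattaattaATTTActatat
Dusp6: ttttgagctggaATTTAttataagaatgta
Dusp3: tcctttcctgtaATTTAtgtctctccctga
Among the 8 called members, Dusp1 had 5.80 pentamers per kb and the others, rising or falling, at most 1.80, and the letters alone say nothing of stability in these cells.

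Outside the 10 genes, relatives in the dual-specificity family were mostly lower. Of 16 further genes 13 were tested, of which 9 were lower, 1 higher and 3 not called (median log2 fold change -0.69, against 0.03 for all tested genes). Of all tested genes 29.7% were called lower. Dusp13 and Styxl1, among the lower genes, had at most 20 raw counts in any library. With a filter of at least 1 CPM in 2 libraries, 7 of 10 tested were lower. Dusp14, an atypical phosphatase, had 1.64 and 1.39 CPM with BMS-582949, against 13.9 and 15.0 CPM in DMSO (log2 fold change -3.25, adjusted p = 1.0e-08), a larger fall than any of the 10 members showed. Dusp28 fell by 1.56 and Dusp8, a further phosphatase of p38 and JNK, by 1.28 on the log2 scale. Dusp9, an ERK phosphatase related to Dusp6 and named after its values were seen, had a log2 fold change of -0.44 that was no longer called without BMS-582949 replicate 2 (-0.33, adjusted p = 0.16) or DMSO replicate 1 (-0.37, adjusted p = 0.10). Its call was also lost with upper-quartile scaling (adjusted p = 0.053), library size only (-0.060, adjusted p = 0.76), DESeq2 (adjusted p = 0.082) and the GC and length trend removed (-0.20, adjusted p = 0.28). Styx, a catalytically inactive relative, was the 1 gene called higher (0.23). It shares 24.0% of its exon length with Gnpnat1 and was not called when any library was left out. The call of Styx was also lost with DESeq2 size factors (adjusted p = 0.067), DESeq2 (adjusted p = 0.12) and the replicate block (adjusted p = 0.08). With the GC and length trend removed, Styx had a log2 fold change of 0.03 (adjusted p = 0.78). The list gave 5 lower with DESeq2 and without DMSO replicate 1, 6 lower without BMS-582949 replicate 2 and without DMSO replicate 2, and 4 lower and 3 higher with library size only, where its median was -0.31. Dusp15, Dusp21 and Dusp26 had no count in any library, which allows at most 0.0663 to 0.0965 CPM per library (3 counts).

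Phosphatases of other families that act on MAP kinases moved both ways. Of 8 tested 4 were higher, among them Ptpn7 (1.19), a tyrosine phosphatase of blood cells that binds ERK and p38, and Ppm1d (0.55), a phosphatase of p38 in the stress response. Ppp2r1b, a scaffold subunit of protein phosphatase 2A, rose by 0.83, with 22.2% of its exon length shared with other models. Ppp2ca (-0.30) and Ppp2r1a (-0.26), the catalytic and main scaffold subunits of that enzyme, were lower, but had log2 fold changes of 0.08 and 0.13 with library size only, where the list had 6 genes higher and 0 lower. Other models cover 41.3% of the exon length of Ppp2ca, and Ppp2r1a was not called with the GC and length trend removed (adjusted p = 0.065). The list's median was 0.13, against 0.51 with library size only, -0.015 without the filter on low counts and -0.055 with DESeq2, and without BMS-582949 replicate 2 it gave 3 higher and 3 lower.

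Among the MAP kinase genes, 5 of 10 tested were higher and 3 lower (median 0.10). Leaving out BMS-582949 replicate 1 moved that median to 0.25, leaving out DMSO replicate 1 to 0.054 and leaving out DMSO replicate 2 to 0.15, and it was 0.48 on library size alone and -0.020 in DESeq2. Mapk14, which encodes p38α, the target of the inhibitor, had 160 and 156 CPM with BMS-582949, against 100.4 and 111 CPM in DMSO (log2 fold change 0.58, adjusted p = 1.0e-05). Mapk11, which encodes p38β, rose by 1.12, and the JNK gene Mapk9 by 0.60. Mapk3, which encodes an ERK, rose by 0.26. Mapk8, the other main JNK gene, had a log2 fold change of 0.003 (adjusted p = 0.98). The atypical kinases Mapk6 (-0.71) and Mapk4 (-1.75) were lower, and Mapk4 was not called without DMSO replicate 2 (-1.45, adjusted p = 0.083). Mapk7 (-0.29, adjusted p = 0.038) had 0.09 with library size only and was not called without BMS-582949 replicate 2, DMSO replicate 1 or DMSO replicate 2 (adjusted p = 0.12, 0.13 and 0.087), and without DMSO replicate 2 the list had 1 gene called lower.

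Genes induced by ERK alongside Dusp4, Dusp5 and Dusp6 did not move as a block. Of 17 tested 6 were higher, 5 lower and 6 not called (median 0.17). Their median became 0.037 when DMSO replicate 1 was left out, 0.32 when DMSO replicate 2 was, and 0.55 on library size alone. Ccnd1 (cyclin D1) rose by 2.50, Myc by 1.55 and Etv5, an ETS factor induced by ERK, by 1.36, with 23.4% of the exon length of Ccnd1 shared with another model. Spry1, an inhibitor of growth factor signalling with 24.4% of its exon length shared with Gm42922, fell by 3.03 and the early response factor Egr1 by 0.71. Spry2 (-0.40) was not called without BMS-582949 replicate 1 (-0.25) or DMSO replicate 2 (-0.32). Nor was Spry2 called with library size only (-0.02, adjusted p = 0.91) or with DESeq2 (-0.42, adjusted p = 0.056). Leaving out BMS-582949 replicate 1 gave 3 lower genes in the list, and scaling by library size only gave 2.

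Effectors and targets of p38 were also mixed, with 7 higher, 3 lower and 7 not called of 17 tested (median 0.03). Dropping BMS-582949 replicate 1 gave a median of 0.13, dropping BMS-582949 replicate 2 one of -0.022, and dropping DMSO replicate 1 one of 0.020. Mef2c, a transcription factor activated by p38, rose by 1.86, the kinase gene Rps6ka5 by 1.53 and Creb1, whose protein binds the CRE, by 1.19. Mknk2, a kinase that phosphorylates a translation factor, fell by 0.89 and Mef2d by 0.54. Mef2d was not called with library size only (-0.16, adjusted p = 0.062). Zfp36, which encodes tristetraprolin, had 68.6 and 81.2 CPM with BMS-582949, against 103 and 98.9 CPM in DMSO (-0.43, adjusted p = 0.00055, and -0.05, adjusted p = 0.57, with library size only). With that scaling 13 of the list were higher and 1 lower (median 0.41).

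Some markers of other cells were called as well, and their part in the results on the phosphatases was not tested. Of all tested genes 60.2% were called, 30.5% higher and 29.7% lower. Of 11 tested stromal and osteoblast markers 8 were lower and 1 higher, with sums of 688 and 686 CPM with BMS-582949, against 1034 and 959 CPM in DMSO, and Bglap at 0. With library size only 4 of them were lower, and without DMSO replicate 1 none was higher. Neutrophil markers (1 higher and 3 lower of 8) summed to 20.6 and 24.4 CPM with BMS-582949, against 29.8 and 29.3 CPM in DMSO, with Ly6g at 0. Without DMSO replicate 2 only 1 of them was lower, without BMS-582949 replicate 1 or DMSO replicate 1 there were 2, and without BMS-582949 replicate 2 there were 0 higher and 4 lower. Dendritic cell markers (1 lower of 2) summed to 16.9 CPM in each BMS-582949 library, against 27.6 and 33.9 CPM in DMSO, with Siglech at 0, and gave 1 higher and 2 lower without BMS-582949 replicate 1. Most of the dendritic cell sum was Itgax alone, at 14.0 and 15.2 CPM with BMS-582949, against 24.2 and 31.0 CPM in DMSO. B cell markers (none called of 3) summed to between 3.38 and 4.69 CPM. T and NK cell markers (none called of 1 tested) summed to between 1.71 and 3.21 CPM, nearly all of it Cd4, with Cd3e, Cd3g, Cd8a and Ncr1 at 0. Mast cell and basophil markers (2 lower of 2) stayed under 2 CPM in sum, with Fcer1a and Tpsb2 at 0. Their calls fell to 0 without BMS-582949 replicate 2 or DMSO replicate 2, and to 1 without DMSO replicate 1, with DESeq2, with library size only and with the replicate block. Of the erythroid markers 1 of 4 was lower, Tfrc, the transferrin receptor gene that many cells express, at 703 and 639 CPM with BMS-582949, against 3713 and 3616 CPM in DMSO.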

How the data were processed

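Raw counts for each gene model in 4 RNA-seq libraries are what the authors deposited. The submitters' processing notes name Trimmomatic 0.36, HISAT2 2.0.4, DESeq2 1.30.1 and GRCm38. How reads were counted, with which annotation and whether by strand, is not given in the sources used here, so exon overlaps above 20% are stated beside the genes concerned, and those of the 10 genes at any size. Of 22036 Ensembl IDs 22022 matched GENCODE M21. Models without an Ensembl ID (1354) were tested but not named.

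Counts were scaled by TMM, filtered (filterByExpr, minimum count 10) and tested with edgeR 4.0.16 in R 4.3.3 (quasi-likelihood F test, Benjamini-Hochberg adjusted p under 0.05). Intervals are 95%, and the SE is the log2 fold change divided by the root of F. CPM are TMM-scaled, and log2 fold changes are BMS-582949 over DMSO. Alternatives were other scalings and filters, DESeq2 1.42.0, limma-voom 3.58.1, a replicate block, leaving out each library, stricter thresholds and, added after seeing the data, removal of a GC and length trend and another transcript length. The 3′ region search was also added then. The 10 genes and all lists were chosen with earlier results of these data known.

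Replicates of a group differed by more than sampling noise (chi-square over its degrees of freedom was 13.9 for BMS-582949 and 9.83 for DMSO). Of the other lists, the text names by rule up to 3 genes called in each direction with the largest changes and a mean of at least 1 CPM, and the kinases Mapk14, Mapk3, Mapk8 and Mapk9; 1 further gene is not reported here. Floors cover counting error only.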

Additional observations from a re-analysis of the deposited data

How the results depend on the processing

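Of 130 values of the 10 genes under 13 refits, 122 kept their direction and side of the threshold. Dusp10 reversed to -0.25 without BMS-582949 replicate 2 (0.56 was its highest value with a library left out), and the 7 others, 6 calls of Dusp5 and Dusp16 lost and 1 of Dusp2 gained, are given with the genes. Without TMM factors, on library size only, 6738 genes rose and 2240 fell, Ppp2ca (0.083), Ppp2r1a (0.13) and Mapk7 (0.092) reversed, and the median of all genes moved by 0.38. Requiring an absolute log2 fold change of at least 1 left 1314 genes higher and 1499 lower, and 0 and 1 of the 10 genes. Leaving out each library gave 3615 to 3711 genes higher and 3509 to 3903 lower, with 3 or 4 of the 10 genes in each direction. The labels do not say whether the replicate numbers pair the samples. Deviations of same-numbered libraries had a correlation of -0.078, which shows no shared deviation but cannot decide whether samples were paired. A replicate block gave 3923 genes higher and 3830 lower, and 4 and 4 of the 10 genes. With 2 libraries per group the fit had 2 residual degrees of freedom. The cause of these differences was not tested.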
